A study of Mus musculus with 20 samples.

Results

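Akr1b7, an aldo-keto reductase gene, and Gm43305, a noncoding gene, are the 2 genes described here. They were chosen by their measured values, because each had a lower share of counts in every MSUS library (unpredictable maternal separation plus maternal stress) than in any Control library, in both deposited tables. Each gene had 1 row per table, Akr1b7 of the protein-coding type and Gm43305 of TEC, a type for transcripts that still need experimental evidence, out of 72034 rows in the table whose name says that libraries were selected by size, called here the sized table, and 59035 in the table named for no such selection, the unsized table. The rule used the contrast of MSUS with Control, so the values of both genes in that contrast are given as a description, with no test.

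The RNA came from cauda epididymosomes, vesicles in the fluid of the epididymal tail, where sperm are stored. The vesicles were pelleted at 120000 rcf from fluid freed of sperm by swim-up, which does not exclude other particles of that density. All mice were males aged 9 months. The 5 MSUS males (animals 2, 4, 6, 8 and 14) came from litters separated from the dam at unpredictable times, for 3 h per day in the first 14 days of life, while the dams were stressed by forced swim or restraint. The 5 Control males (animals 3, 5, 7, 9 and 11) came from litters left untouched. The labels give no strain or litter, so spread between samples is spread between these animals. The 10 libraries, made with a NEBNext small RNA kit, were sequenced in 2 runs, which gives 20 samples. Both tables keep the names their labels give them here. Those names sit badly with the miRNA share of counts, which lay at a median of 12.3% in the sized table and of 65.4% in the other.

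Akr1b7 belongs to the aldo-keto reductases, enzymes that reduce aldehydes and ketones to alcohols with NADPH. It was first known as the mouse vas deferens protein, is under androgen control in the vas deferens and under corticotropin control in the adrenal cortex, and reduces aldehydes from lipid peroxidation and from steroid side chain cleavage. It also has prostaglandin F synthase activity. Gm43305 has no described function. Its longest transcript, of 4901 bases, holds 2 long open reading frames, of 536 and 561 codons. These frames were not compared with known proteins here, and the name "noncoding" is that of the annotation.

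In GRCm38 with the GENCODE vM21 annotation, Akr1b7 (ENSMUSG00000052131) lies at chr6:34412334-34423142 on the plus strand, with 10 exons and a transcript of 1281 bases. Akr1b10 is its nearest neighbour on the left, 15383 bases away, and Bpgm, of red cell glycolysis, is the nearest on the right, 53064 bases away. The pseudogene Gm13857 overlaps Akr1b7 on the opposite strand, and a kit that was not counted by strand could not tell the pair apart. Its rows together held a mean of 12.2 counts per library in the sized table and 10.6 in the other. Gm43305 (ENSMUSG00000105703) lies at chr14:54292443-54297456 on the minus strand, between the odorant receptor gene Olfr49 and the pseudogene Gm43304. That annotation calls it a processed transcript.

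Both genes have near copies, which bears on how short reads are assigned. Of 1262 stretches of 20 bases in the Akr1b7 transcript, 22.3% also occurred in transcripts of 14 other genes on the same strand, most often Akr1b10 (204 stretches), the pseudogene Gm15806 (116) and Akr1b8 (107). The coding sequence of Akr1b7 was identical at 89.2% of 948 bases to that of Akr1b10, at 84.8% to that of Akr1b8 and at 72.0% to that of Akr1b3, the mouse aldose reductase. The stretches below show why some reads can be placed and others cannot. They are the 60 coding bases where Akr1b7 and Akr1b10 are most alike (coding bases 242 to 301, exon 3), read from GENCODE vM21 transcripts, with capitals where a gene differs from Akr1b7.
Akr1b7: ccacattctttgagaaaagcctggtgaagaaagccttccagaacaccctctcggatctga
Akr1b10: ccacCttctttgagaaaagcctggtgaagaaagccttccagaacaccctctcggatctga
Akr1b8: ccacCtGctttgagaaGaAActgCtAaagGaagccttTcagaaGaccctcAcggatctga
Akr1b3: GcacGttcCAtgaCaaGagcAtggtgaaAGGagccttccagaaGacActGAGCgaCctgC
In this stretch, chr6:34416125-34416184, Akr1b10 differed from Akr1b7 at 1 base, so most short reads from here fit both genes. Akr1b8 differed at 11 bases and Akr1b3 at 18.

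The stretch where Akr1b7 and Akr1b10 are least alike (coding bases 352 to 411, exon 4, chr6:34417283-34417342) is shown in the same way, with capitals where a gene differs from Akr1b7.
Akr1b7: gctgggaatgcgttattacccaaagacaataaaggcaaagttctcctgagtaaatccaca
Akr1b10: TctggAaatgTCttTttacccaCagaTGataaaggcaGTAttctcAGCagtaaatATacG
Akr1b8: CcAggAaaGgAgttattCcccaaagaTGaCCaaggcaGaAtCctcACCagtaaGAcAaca
Akr1b3: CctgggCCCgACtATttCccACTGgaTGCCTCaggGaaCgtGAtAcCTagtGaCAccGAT
Here Akr1b10 differed at 17 bases, Akr1b8 at 19 and Akr1b3 at 32. Many of the deposited counts are not whole numbers. The sources used here do not say how reads that fit several genes were divided, so part of the counts of one of these genes may belong to another. Gm43305 shared 25.8% of its 4882 stretches of 20 bases with 115 genes on the same strand, and its counts are likewise uncertain. Most of these genes shared 5 stretches or fewer, while Gm42031 shared 854, Gm42427 502 and AI506816 407. On the opposite strand, 14.0% of the stretches occurred in 8 genes.

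Totals ran from 1872084 to 3647956 counts per library in the sized table and from 215231 to 871461 in the other. In the sized table, tRNA took 14.5 to 43.6% of counts in Control and 23.8 to 66.0% in MSUS libraries, and protein-coding rows took 19.7 to 31.6% and 7.48 to 25.2%. In the unsized table, protein-coding rows took 9.40 to 13.6% in Control and 5.89 to 9.44% in MSUS libraries. MSUS 14, Control 9 and Control 11 had the least tRNA of the sized table, at 23.8, 14.5 and 25.3%, and Control 5 had the least of the unsized table. Of the fixed markers of epididymal epithelium, 24 of 25 had a row with counts in the sized table, led by Crisp1. Several of these lay near the floor, such as Crisp4 (mean count 2.2), Lcn5 (1.4) and Cst11 (0.1), and 11 had enough counts to be tested. Of the markers of seminal vesicle and prostate, 7 of 11 had a row with counts there, with a summed share of at most 0.00370% in any library.

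Akr1b7 was the protein-coding row with the most counts in each of the 20 samples, before any correction for length. In the sized table it held 1.71% of all counts in Control 3, 1.53% in Control 5, 1.84% in Control 7, 1.93% in Control 9 and 2.38% in Control 11. In the MSUS libraries it held 0.950% in MSUS 2, 0.989% in MSUS 4, 0.984% in MSUS 6, 0.531% in MSUS 8 and 1.09% in MSUS 14. The groups did not overlap, Control 11 was the highest library, and MSUS 8 was well below the other MSUS libraries. The means were 1.88 ± 0.320% in Control and 0.909 ± 0.219% in MSUS (SD, n = 5 each), a ratio of MSUS to Control of 0.484. These shares rest on 28659 to 86900 counts of Akr1b7 in Control and 14181 to 31697 in MSUS libraries. In bulk RNA of vesicles, fewer vesicles from the cells that make an RNA and less of that RNA per vesicle cannot be told apart.

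The same animals gave lower shares of Akr1b7 in the unsized table. Control 3 stood at 0.434%, Control 5 at 0.447%, Control 7 at 0.532%, Control 9 at 0.373% and Control 11 at 0.431%. MSUS 2 stood at 0.167%, MSUS 4 at 0.357%, MSUS 6 at 0.238%, MSUS 8 at 0.267% and MSUS 14 at 0.192%. The groups again did not overlap, although MSUS 4 and Control 9 nearly met. The means were 0.443 ± 0.0572% and 0.244 ± 0.0740% (SD, n = 5 each), a ratio of 0.550, from 359 to 3752 counts per library.

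Gm43305 was the row with the most counts of its type in each of the 20 samples. In the sized table its share of all counts was 0.343% in Control 3, 0.362% in Control 5, 0.359% in Control 7, 0.364% in Control 9 and 0.349% in Control 11. It was 0.186% in MSUS 2, 0.199% in MSUS 4, 0.219% in MSUS 6, 0.131% in MSUS 8 and 0.303% in MSUS 14. The Control libraries lay close together, with an SD of 2.50% of their mean, while the MSUS libraries spread over more than the gap between the groups, with an SD of 30.1% of theirs. The means were 0.355 ± 0.00888% and 0.207 ± 0.0624% (SD, n = 5 each), a ratio of 0.584. Its share in the unsized table was 0.294% in Control 3, 0.247% in Control 5, 0.247% in Control 7, 0.312% in Control 9 and 0.244% in Control 11, with a mean of 0.269 ± 0.0321%. The MSUS libraries held 0.161% in MSUS 2, 0.176% in MSUS 4, 0.170% in MSUS 6, 0.138% in MSUS 8 and 0.223% in MSUS 14, with a mean of 0.174 ± 0.0310%. MSUS 14 was the highest MSUS library and MSUS 8 the lowest in both tables.

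**Figure D1:**
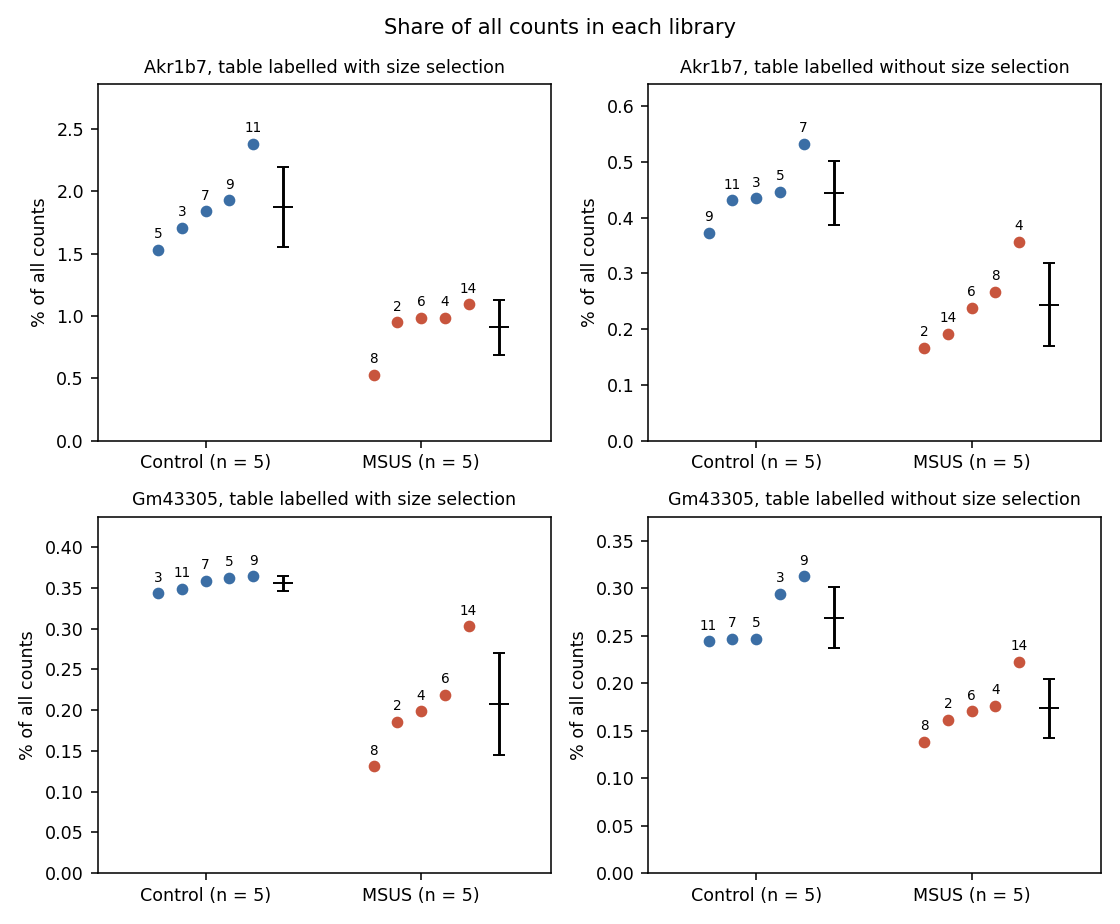
Share of all counts (vertical axes, %, from 0) of Akr1b7 and Gm43305 in each Control (blue) and MSUS (red) library of both tables, with the animal number above each point and the mean and SD (n = 5) beside it in black. Points are sorted within a group, and in each panel the 5 MSUS libraries lie below the 5 Control libraries, which is the pattern that chose both genes.

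The margin by which both genes met the rule was narrow in places. The highest MSUS share was 0.715 times the lowest Control share for Akr1b7 and 0.882 times for Gm43305 in the sized table, and 0.956 and 0.912 times in the other. Among other abundant mRNAs, Crisp1, a secreted epididymal protein that coats sperm, did not meet the rule in either table. Its highest MSUS share was 1.51 times its lowest Control share in the sized table (3 of 5 MSUS libraries below all Control libraries) and 1.16 times in the unsized table (4 of 5). Across all tested rows, a share below that of any Control library in every MSUS library was found for 404 of 10998 rows in the sized table (3.67%) and for 57 of 1075 in the other (5.3%). It was found in both tables for 18 of the 1074 rows tested in both (1.68%). The opposite pattern was found for 1 row (0.00909%) and 0 rows (0.0%). Since the rule used this contrast, nothing is read from these shares about the pair.

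The rows low in both tables also included Akr1b10, Gm42427, which shares sequence with Gm43305, and Abcg2, an efflux transporter. These examples were chosen after their values were seen.

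The size of the difference in share depended on the total it was set against. Relative to protein-coding counts alone, which were themselves a smaller part of MSUS libraries, the groups overlapped in each case. Akr1b7 took, in the sized table, 8.05 ± 1.35% of protein-coding counts in Control (6.10 to 9.33%) and 6.27 ± 1.25% in MSUS (4.35 to 7.45%), with 2 of 5 MSUS libraries below all Control libraries. In the other table it took 4.34 ± 1.04% (2.74 to 5.66%) and 3.34 ± 1.09% (2.03 to 4.53%), again with 2 of 5. The lowest library of its group was Control 9 or MSUS 14 in each of these comparisons, 2 of the libraries that stood apart by their tRNA share. The ratios of MSUS to Control were 0.779 and 0.770, closer to 1 than those of the shares of all counts.

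Gm43305, set against the same protein-coding counts, hardly separated the groups. There were, in the sized table, between 1.15 and 1.82 Gm43305 counts per 100 protein-coding counts in Control libraries and between 1.13 and 1.75 in MSUS libraries. In the other table they lay between 2.30 and 3.05 and between 2.14 and 2.45. The ratios of the means were 0.916 and 0.904. Below all Control libraries lay 1 of 5 MSUS libraries in each table. Over the protein-coding rows tested, all MSUS libraries lay below all Control libraries on this scale for 0.286% of rows in the sized table and 0.387% in the unsized table. They lay above all Control libraries for 0.572% and 0.193%.

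**Figure D2:**
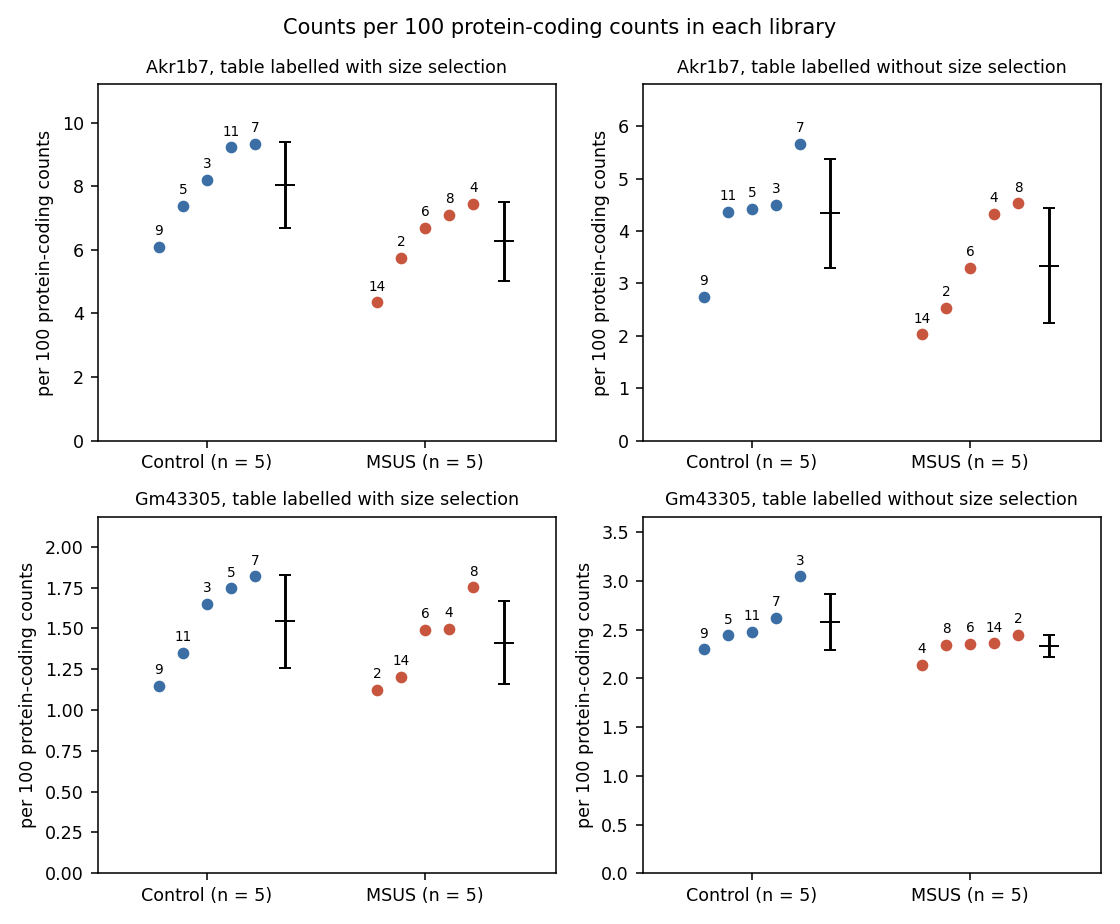
Counts of Akr1b7 and Gm43305 per 100 protein-coding counts (vertical axes, from 0) in each Control (blue) and MSUS (red) library of both tables, with the animal number above each point and the mean and SD (n = 5) in black. The groups overlap in all 4 panels, with 2 of 5 MSUS libraries below all Control libraries for Akr1b7 and 1 of 5 for Gm43305.

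With tRNA and rRNA left out of the total, the values fell in between. Akr1b7 took 2.32 to 3.43% of the remaining counts in Control and 1.47 to 2.18% in MSUS libraries of the sized table, with no overlap. In the other table it took 0.438 to 0.751% and 0.214 to 0.448%, and MSUS 4 exceeded Control 9. Gm43305 took 0.438 to 0.668% and 0.328 to 0.438% in the sized table, where MSUS 4 just exceeded Control 9, and 0.272 to 0.367% and 0.169 to 0.249% in the unsized table, with no overlap. On this scale 5.6% of all rows tested in the sized table and 4.74% in the other separated in the same direction, and 0.0182% and 0.0% in the opposite one. In the edgeR fits, which scale libraries so that most rows are unchanged (TMM), the log2 difference of MSUS from Control was −0.41 (SE 0.28) for Akr1b7 and −0.18 (SE 0.23) for Gm43305 in the sized table, and −0.63 (SE 0.25) and −0.39 (SE 0.19) in the unsized table. With the library total as the only scaling these became −1.06, −0.79, −0.90 and −0.67, and the median of all rows moved to −0.58 and −0.30. Relative to that median both genes stayed on the lower side. How much of the lower share belongs to the smaller protein-coding part of MSUS libraries was not tested.

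The values were also taken without the 3 libraries with the least tRNA in the sized table. Without Control 9, Control 11 and MSUS 14, the MSUS to Control ratio of the share of all counts was 0.510 for Akr1b7 and 0.518 for Gm43305 in the sized table, and 0.546 and 0.615 in the unsized table. That the groups stay apart on this scale follows from the rule and is no sign of stability. As a part of protein-coding counts, 3 of the 4 remaining MSUS libraries lay below the 3 remaining Control libraries for each gene and table. Control 9, left out here, was the lowest Control library on that scale for each gene and table. Leaving it out by itself favours such a count. The share of all rows with this pattern was not taken, and the groups are those that chose the genes, so nothing is read from it.

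The genes did not keep a fixed proportion to each other. The sized table held 14.6 to 23.6 counts of Gm43305 per 100 of Akr1b7 in Control libraries (mean 19.3 ± 3.22) and 19.6 to 27.7 in MSUS libraries (22.9 ± 3.36; SD, n = 5 each). In the other table there were 46.3 to 83.8 (62.0 ± 14.4) and 49.4 to 116 (77.1 ± 28.9). The groups overlapped in both tables.

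The pair differed most in how their counts moved between the tables, a contrast the rule did not use. Every animal had a larger share of Akr1b7 in the sized table than in the other. The log2 ratio of shares was 1.97 in Control 3, 1.78 in Control 5, 1.79 in Control 7, 2.37 in Control 9 and 2.47 in Control 11. In the MSUS animals it was 2.51 in MSUS 2, 1.47 in MSUS 4, 2.04 in MSUS 6, 0.99 in MSUS 8 and 2.51 in MSUS 14. The mean was 1.99 ± 0.50 (SD, n = 10), a 3.97-fold larger share (10 of 10 animals, exact two-sided sign-flip permutation test, p = 0.00195, the smallest it can give; adjusted p = 0.00391 over both genes). MSUS 8, which had the highest tRNA share of all libraries, had the smallest ratio, and whether these go together was not tested.

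Gm43305 moved far less between the tables. Its log2 ratio of shares was 0.22 in Control 3, 0.55 in Control 5, 0.54 in Control 7, 0.22 in Control 9 and 0.51 in Control 11. It was 0.20 in MSUS 2, 0.17 in MSUS 4, 0.36 in MSUS 6, −0.08 in MSUS 8 and 0.44 in MSUS 14. The mean was 0.31 ± 0.20 (SD, n = 10), or a 1.24-fold larger share (9 of 10 animals, exact sign-flip permutation p = 0.00391, adjusted p = 0.00391). Unlike that of Akr1b7, this direction depended on the scale. As a part of protein-coding counts, the ratio of Gm43305 was −0.75 (0 of 10 animals positive, exact sign-flip permutation p = 0.00195), while that of Akr1b7 stayed positive at 0.93.

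**Figure D3:**
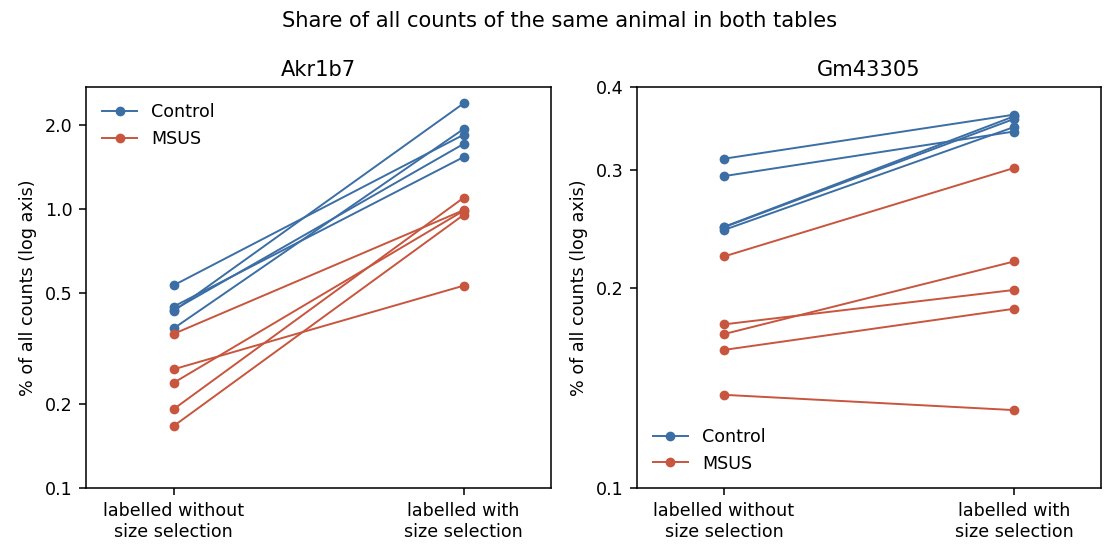
Share of all counts (vertical axes, %, log scale) of Akr1b7 and Gm43305 for each animal in the unsized and the sized table, 1 line per animal, Control blue and MSUS red. All 10 lines of Akr1b7 climb steeply, by 0.99 to 2.51 on the log2 scale, while those of Gm43305 are flatter and that of MSUS 8 falls by 0.08.

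The edgeR fit across both tables placed the pair on opposite sides of the typical row. Akr1b7 was higher in the sized table by 1.06 on the log2 scale (SE 0.19, edgeR adjusted p = 3.96e-05), and Gm43305 was lower by a log2 difference of −0.58 (SE 0.15, edgeR adjusted p = 0.00263). Of 5725 rows tested, 19.9% were higher and 18.8% lower in that table, so a change between the tables was common. With only the library total as scaling, Akr1b7 stood at 2.02 and Gm43305 at 0.36 (edgeR adjusted p = 0.0870), and the median row at 1.06. The tables were sequenced in separate runs, so run and size selection cannot be told apart.

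Deviations of Akr1b7 from the group mean did not carry over from table to table. Pearson's r of log2(CPM + 1) between the tables, with each group centred on its own mean, was −0.23 for Akr1b7 and 0.81 for Gm43305 over the 10 animals. It is a description, and the points share the depth and composition of their libraries. A different measure, taken within each animal across all rows with enough counts, gave an r of 0.28 to 0.71 between its 2 samples. It cannot be set against the r of a row over animals, which was not taken for other rows.

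The rows whose pattern over the 10 libraries of a table was most like that of a member were found on the same centred scale, among rows with a mean count of 10 or more. The most alike rows of the sized table were Itm2c (r = 0.97), Ttc38 (0.97) and Frk, a tyrosine kinase (0.97), for Akr1b7, and Csk (0.99), another tyrosine kinase, Zdhhc5 (0.99) and H6pd (0.98) for Gm43305. The median r over all 11238 other rows was already 0.69 for Akr1b7 and 0.74 for Gm43305, and the r of the pair with each other was 0.75. The unsized table gave other rows, among them Crygc (0.93) and a nonsense-mediated decay transcript of Akr1b10 (0.93) for Akr1b7. For Gm43305 they were Cd74 (0.96) and B2m (0.94), both of antigen presentation, and Ubqln1 (0.94). The median r over 1402 rows was −0.12 and 0.37 there, and the pair had an r of −0.34 with each other. The rows share depth and library composition, and different rows were most alike in each table.

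Among its relatives, Akr1b7 stood far above the rest once counts were set against transcript length. On the scale of CPM per kb of transcript, averaged over the 10 libraries, it reached 10878 in the sized table. Akr1b10 followed at 224, a 48.6-fold lower level, then Akr1a1, the general aldehyde reductase, at 70.5 and Akr1b8 at 41.1. Each gene is given here, as in the lists below, by its row with the highest mean count, which leaves out its other rows. The 3 rows of Akr1b10 together held a mean of 1596 counts per library, against 823 in the row used. The 2 rows of Akr1b8 held 289, against 147. Akr1b7 has no other row, so its lead over these genes is smaller when all rows are counted. Akr1b3 stood at 5.51. Levels in the unsized table were lower, with Akr1b7 at 2683, Akr1b10 at 145, Akr1b8 at 44.9 and Akr1a1 at 29.7. The order of the rows used for Akr1b8 and Akr1a1 thus changed between the tables, a difference that was not tested and may not hold over all rows. The liver and steroid-metabolising members Akr1c6, Akr1c14, Akr1d1 and Akr1c20 averaged under 1 count per library.

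**Figure D4:**
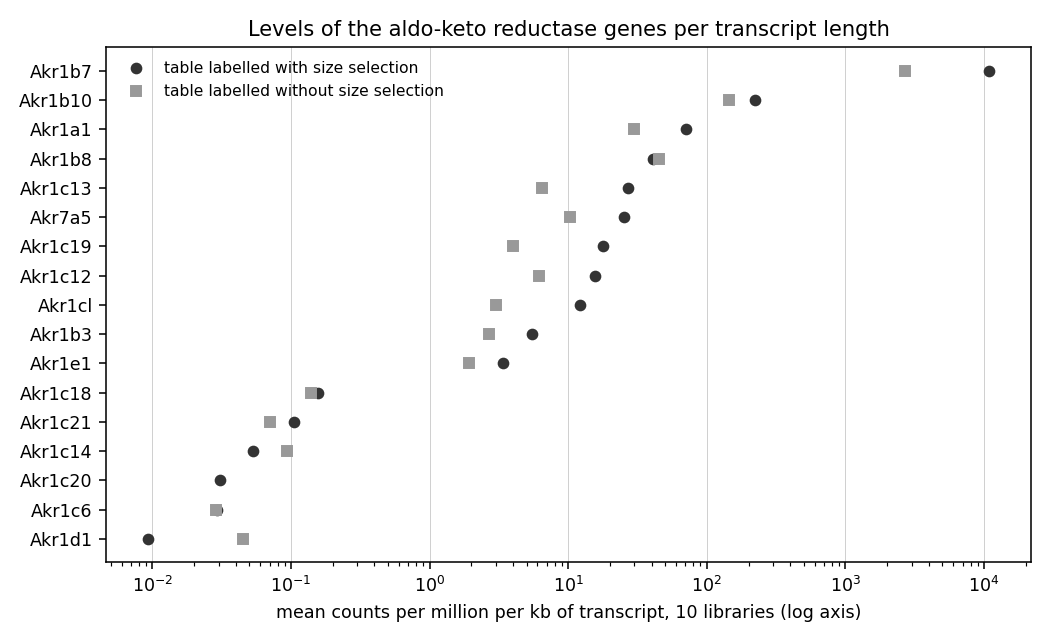
Mean level of each aldo-keto reductase gene with counts (horizontal axis, CPM per kb of transcript, log scale, mean of 10 libraries) in the sized (dark circles) and unsized (grey squares) table. Akr1b7 lies highest in both tables, at 10878 and 2683, followed by Akr1b10 at 224 and 145. Each gene is given by its row with the highest mean count.

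The family's own contrast of MSUS with Control was tested on all rows. By edgeR, 0 of 10998 rows in the sized table and 0 of 1075 in the other passed an adjusted p of 0.05 in either direction (0.0%), with 635 and 85 rows at an unadjusted p under 0.05 and 33 and 0 rows called by DESeq2. Of 11 aldo-keto reductase genes tested in the sized table, Akr1b7 among them, 0 passed, with 5 positive and 6 negative and a median log2 difference of 0.00, as over all rows. With the library total as the only scaling, which moves the median row to −0.58, all 11 were negative, and 6 lay below that median. The negative ones included Akr1b10 and Akr1b8, which lie near Akr1b7 on chromosome 6 and share stretches of sequence with it. Akr1b10 had a mean CPM of 405 ± 56.6 in Control and 210 ± 48.7 in MSUS (SD, n = 5 each), with a log2 difference of −0.32 (SE 0.19, edgeR adjusted p = 0.882). Akr1b8 averaged 72.4 ± 2.83 and 39.2 ± 7.62 CPM (log2 −0.27, SE 0.19, edgeR adjusted p = 0.906). Akr7a5, a reductase of succinic semialdehyde, was at −0.20 (SE 0.12). Akr1b3, which lies in the same part of chromosome 6, was at 0.04 (SE 0.18).

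Only 4 genes of the family could be tested in the unsized table, and 0 passed, with a median of −0.58 beside 0.01 over all rows. That median includes Akr1b7, chosen for its low share in this contrast, and Akr1b10 and Akr1b8, which share sequence with it. Akr1a1 was positive, at 0.10 (SE 0.25). With the library total alone all 4 were negative, and 3 lay below the median of all rows. Akr1b10 had a mean CPM of 253 ± 31.9 in Control and 144 ± 32.2 in MSUS (log2 −0.57, SE 0.25, edgeR adjusted p = 0.554). Akr1b8 averaged 78.7 ± 13.9 and 43.3 ± 8.21 CPM (log2 −0.59, SE 0.25, edgeR adjusted p = 0.554). In CPM, all 5 MSUS libraries lay below all 5 Control libraries for Akr1b10, Akr1b8 and the pseudogene Gm15806 in both tables. This is the pattern of the rule, found for 18 of the 1074 rows tested in both tables (1.68%), and these genes were picked after the values were seen. CPM carry the difference in library composition given above, and these 3 genes share stretches of sequence with Akr1b7, so they are not independent of it.

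Of the genes that share sequence with Gm43305, there were 7 with 50 or more shared stretches on the same strand and a row in the tables, a limit set after the files were seen. Their mean CPM was lower in MSUS for 7 of 7 in each table, on a scale (library total alone) where 97.5% of all rows tested in the sized table and 78.5% in the unsized table were also negative. Gm42427, which shares 502 stretches, had a mean CPM of 609 ± 75.6 in Control and 288 ± 120 in MSUS of the sized table, and 470 ± 60.0 and 254 ± 59.7 CPM in the other. AI506816, with 407 stretches, averaged 128 ± 17.1 and 67.5 ± 25.1 CPM and then 214 ± 42.6 and 118 ± 30.3 CPM. Both were far below Gm43305 in counts, and reads of these genes may have been shared with it.

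Genes of prostaglandin synthesis and breakdown, in which Akr1b7 can take part, leaned to the lower side with 0 of 10 passing in the sized table. There 8 were negative and 2 positive, with a median of −0.29 beside 0.00 over all rows. With the library total alone 10 of 10 were negative, 8 of them below the median of all rows. Ptgr1, a reductase that inactivates leukotriene and prostaglandin metabolites, had a mean CPM of 139 ± 18.0 in Control and 68.8 ± 16.8 in MSUS (log2 −0.39, SE 0.15, edgeR adjusted p = 0.839). Pla2g4a, the phospholipase that frees arachidonic acid, differed by −0.24 (SE 0.10). Of the same list 5 genes were tested in the unsized table, all 5 negative with 0 passing, and the median was −0.57. Ptgs2, the inducible cyclooxygenase, averaged 491 ± 90.8 and 246 ± 109 CPM (log2 −0.74, SE 0.28, edgeR adjusted p = 0.554). Hpgd, which breaks prostaglandins down, averaged 168 ± 42.8 and 84.7 ± 20.8 CPM (log2 −0.71, SE 0.24, edgeR adjusted p = 0.554).

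**Figure D5:**
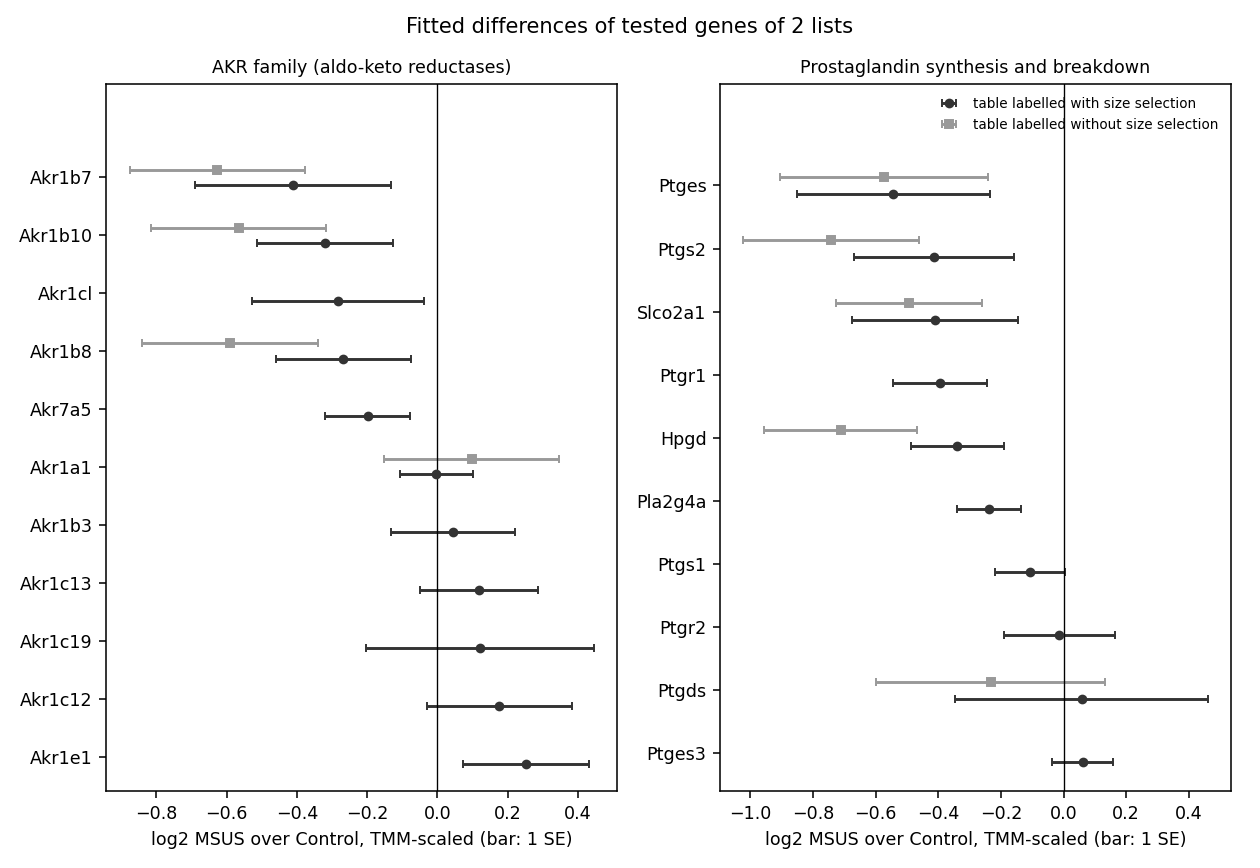
Fitted log2 difference of MSUS from Control (horizontal axes, TMM scaling, points with 1 SE either side) for the tested aldo-keto reductase genes and genes of prostaglandin synthesis and breakdown, in the sized (dark circles) and unsized (grey squares) table. Akr1b7 (−0.41 and −0.63) is shown as a description; no gene in either panel passed an adjusted p of 0.05.

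Enzymes that handle aldehydes and lipid peroxides were the next list. In the sized table, 0 of 18 tested passed, with 11 positive and 7 negative and a median of 0.09, while with the library total alone 18 of 18 were negative and 11 lay above the median of all rows. Sord, sorbitol dehydrogenase, was at 0.57 (SE 0.16, edgeR adjusted p = 0.839) and Aldh1a2, which makes retinoic acid, at 0.39 (SE 0.19). Of those tested in the unsized table, 0 of 5 passed (2 positive, 3 negative, median −0.01), with Aldh1a1 at −0.23 (SE 0.21) and Aldh2 at 0.10 (SE 0.22). Of androgen-dependent genes of the male tract, Gpx5, an epididymal peroxidase, was at 0.46 (SE 0.27, edgeR adjusted p = 0.882) and Odc1 at 0.22 (SE 0.16, edgeR adjusted p = 0.913) in the sized table. Fkbp5, a target of steroid hormones, was at −0.37 (SE 0.24, edgeR adjusted p = 0.593) in the unsized table. None of these 3 passed.

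Markers of other cells were set beside these values. All 12 of 12 tested sperm and spermatid markers were positive in the sized table (median 0.46) and 10 of 11 of smooth muscle and stroma (median 0.37), with 0 passing. With the library total alone 0 of 12 and 5 of 11 were positive, though 12 and 10 lay above the median of all rows. Their summed shares of all counts overlapped between the groups, at 0.0283 to 0.0512% in Control and 0.0233 to 0.0516% in MSUS libraries for sperm, and at 0.0374 to 0.119% and 0.0178 to 0.121% for smooth muscle and stroma. Blood cell markers summed to 0.0118 to 0.0280% and 0.00487 to 0.0204%. Epididymal epithelium markers, led by Crisp1, summed to 0.236 to 0.526% in Control and 0.0887 to 0.349% in MSUS libraries, and the 11 tested had a median of −0.04. In the sized table all sperm, blood and muscle genes of the lists had counts, though some had few, such as Catsper1 (mean 0.6) and Alas2 (0.8). Lcn9 of the epididymal list had none there, nor had Svs6, Svs7, Spink3 and Pbsn of the accessory gland list. In the unsized table, Tsga8 of sperm, Alas2 of blood, and Cst8 and Cst11 of the epididymal list were among further genes without counts. Few markers could be tested there, and 0 passed. Positive were 3 of 3 of sperm (median 0.16) and 1 of 2 of smooth muscle and stroma (0.13). So were 1 of 5 of epididymal epithelium (−0.28) and 0 of 1 of blood cells (−0.27). The part of these marker genes in the lower shares of Akr1b7 and Gm43305 was not tested.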

How the data were processed

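The authors deposited 2 tables of estimated counts per annotated RNA, 69.4 and 69.6% of them not whole among values above 0. The submitters' processing notes name GRCm38, STAR and edgeR. The assignment of reads to RNAs is not described in the sources used here. The series' design text ties the tables to the runs, and their column names give the animal alone.

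Counts were rounded and tested with edgeR 4.0.16 in R 4.3.3 (filterByExpr, TMM, robust quasi-likelihood, Benjamini-Hochberg, threshold 0.05), per table and across tables with condition as covariate. The fits of MSUS against Control were also run on simulated counts, with a common dispersion and as many rises as falls. These simulations do not cover the difference in library composition between the groups. Shares between tables were compared by sign-flip over 10 animals (pseudocount 0.5). Alternatives were DESeq2 1.42.0, library size only, no filter, other denominators and left-out libraries. The labels state that each library was sequenced in both runs, so animals pair the tables. Same-animal r was 0.28 to 0.71 over 1397 rows, and the highest between animals was 0.51.

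The genes named are the members, every Akr1b gene, the most counted family member, the 2 smallest p per list and table, the 3 most alike rows and the neighbours. The members and lists were chosen with earlier results of these data known. Some genes that this rule selects, and the counts of a list that holds one, are not reported here.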

Additional observations from a re-analysis of the deposited data

Results flagged for a closer look

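Of 24 sets of 5 libraries examined (2 genes, 2 tables, 2 groups and 3 scales), 2 held a library far from the others, where chance gives about 1 in 20. In the sized table, the share of all counts of Akr1b7 was 0.531% for MSUS 8 against 0.950% or more in the other MSUS libraries. The share of Akr1b7 among counts outside tRNA and rRNA was, for Control 7 of the unsized table, 0.751% against 0.522% or less in the other Control libraries.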

How the results depend on the processing

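With 1 library at a time left out, the log2 ratio of mean shares, MSUS over Control, whose sign the choice of genes fixes, was −1.12 to −0.90 (Akr1b7) and −0.95 to −0.65 (Gm43305) in the sized table and −1.04 to −0.75 and −0.74 to −0.56 in the other. The size depended on the denominator: relative to protein-coding counts the log2 ratios were −0.36 and −0.13 (sized) and −0.38 and −0.15 (unsized), and with TMM-scaled library sizes −0.41 and −0.18 (sized) and −0.39 for Gm43305 (unsized). Between the tables, the share of Gm43305 gave +0.31 with an adjusted p of 0.145 by exact permutation of the 20 samples without the replicate block, and reversed to −0.75 relative to protein-coding counts (adjusted p = 0.00195). Its edgeR difference between the tables was 0.36 with library size only and 0.085 with no filter, against −0.58.

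MSUS against Control had 0 rows called by edgeR in the sized table, 33 by DESeq2, 3 with library size only, 48 with no filter and 0 to 2 with 1 library left out (2 without Control 3). In the other table it had 1 with library size only and 2 without Control 9, Control 11 and MSUS 14. Between the tables edgeR called 2217 rows, 4632 (4211 higher, 421 lower) with library size only, 8182 (5544 and 2638) with no filter, and 2430 with animal as a replicate block, which changed no call of either gene. With library size only the log2 differences of Akr1b3 (−0.55), Aldh1a2 (−0.21), Gpx5 (−0.14), Odc1 (−0.37) and Sord (−0.075) of the sized table and of Aldh2 (−0.21) in the other turned negative. Akr1b3 was at −0.023 with no filter and −0.018 to 0.15 with 1 library left out, and Aldh2 at −0.026 to 0.18. The causes were not tested, beyond the shift of the median of all rows by that scaling. Rounding the counts left the shares within the spread of the libraries. Counting only each gene's highest row could change nothing, as neither gene has another row. Depth limits the unsized table, where Akr1b7 rested on as few as 359 counts in a library.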
